A study of Mus musculus with 48 samples.

Results

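The 10 genes described here are 3 genes of membrane lipid metabolism that lie in a deleted interval of mouse chromosome band 7qF3, and 7 of their pathway partners elsewhere in the genome. The interval genes are Cdipt, Fam57b and Gdpd3. The partners are the CDP-diacylglycerol synthases Cds1 and Cds2 and the ceramide synthases Cers1, Cers2, Cers4, Cers5 and Cers6. Members were matched by gene symbol, each symbol met 1 gene ID, and all 10 were among the 47069 gene IDs of the count table and were tested in every region. RNA sequencing had been carried out on cortex, striatum and cerebellum of 16 mice, which gave 48 libraries. The 8 deletion mice, D801 to D804 (male) and D809 to D812 (female), carried the 7qF3 deletion that is syntenic to human 16p11.2. The 8 wild-type mice, W805 to W808 (male) and W813 to W816 (female), were the matched controls. All 16 were on a C57BL/6N:129Sv background, and the labels name no treatment. Their age field holds a date in place of an age, and that date divides the mice exactly as sex does, so date and sex cannot be told apart. Each library was bulk tissue of 1 region of 1 mouse, so fewer cells of a type and less RNA per cell cannot be told apart in any value below.

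Phosphatidylinositol is made at the endoplasmic reticulum in a pair of steps: CDS1 or CDS2 activates phosphatidic acid to CDP-diacylglycerol, and CDIPT joins that to inositol. Its phosphorylated forms are the substrate of phospholipase C in neuronal signalling, so brain tissue spends and remakes it continually. Ceramide, the root of sphingomyelin, gangliosides and the galactolipids of myelin, is formed by ceramide synthases that differ in the acyl chain they prefer. CERS1 prefers the C18 chain of neurons and CERS2 the very long chains abundant in myelin. FAM57B (also named TLCD3B) carries the TLC domain that ceramide synthases share, and GDPD3 is a glycerophosphodiester phosphodiesterase that acts on lysophospholipids as a lysophospholipase D.

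On GRCm38 with GENCODE vM21, Gdpd3 lies at chr7:126766334-126775649, Fam57b at chr7:126797668-126830219 and Cdipt at chr7:126975914-126980501, all on the plus strand. Promoter windows, from shortly before to just after a transcript start, were read from RefSeq (build GRCm38.p6), which held 13 windows for 9 of the 10 genes. Windows are shown for Gdpd3, whose level differed widely between animals, and for Fam57b, Cds1 and Cds2, whose levels differed between regions. Cers1, Cers2 and Cers4 also differed between regions, and their windows are not shown. The Gdpd3 window is chr7:126766164-126766463, that of Fam57b chr7:126823053-126823352 (the 1 of its 3 windows with a motif match), that of Cds1 chr5:101764880-101765179 and that of Cds2 chr2:132262898-132263197, all on the plus strand. Cds2 also had a window at chr2:132285689-132285988, which is not shown. Capitals mark matches on either strand to 5 motifs. The CCAAT box reads as ATTGG on the other strand, and the GC box GGGCGG reads there as CCGCCC. The TATA motif TATAAA reads there as TTTATA. The E-box CACGTG and the cAMP response element TGACGTCA read alike on both strands.
Gdpd3: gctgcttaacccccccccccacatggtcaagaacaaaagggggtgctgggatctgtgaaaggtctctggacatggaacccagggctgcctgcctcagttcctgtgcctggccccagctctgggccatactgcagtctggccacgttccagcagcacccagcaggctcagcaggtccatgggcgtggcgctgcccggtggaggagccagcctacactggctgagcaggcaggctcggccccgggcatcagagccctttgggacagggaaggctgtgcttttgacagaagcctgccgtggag
Fam57b: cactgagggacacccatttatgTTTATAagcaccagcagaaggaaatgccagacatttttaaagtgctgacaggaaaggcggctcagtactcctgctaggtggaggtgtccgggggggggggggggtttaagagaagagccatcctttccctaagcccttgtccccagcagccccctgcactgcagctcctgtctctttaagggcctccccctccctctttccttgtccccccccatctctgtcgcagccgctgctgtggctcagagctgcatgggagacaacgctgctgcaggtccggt
Cds1: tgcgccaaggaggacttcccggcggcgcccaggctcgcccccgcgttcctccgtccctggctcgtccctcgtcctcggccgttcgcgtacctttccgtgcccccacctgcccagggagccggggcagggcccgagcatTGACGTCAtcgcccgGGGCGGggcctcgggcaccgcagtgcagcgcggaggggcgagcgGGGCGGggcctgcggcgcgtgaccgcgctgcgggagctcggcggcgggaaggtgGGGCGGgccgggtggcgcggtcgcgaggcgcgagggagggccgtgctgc
Cds2: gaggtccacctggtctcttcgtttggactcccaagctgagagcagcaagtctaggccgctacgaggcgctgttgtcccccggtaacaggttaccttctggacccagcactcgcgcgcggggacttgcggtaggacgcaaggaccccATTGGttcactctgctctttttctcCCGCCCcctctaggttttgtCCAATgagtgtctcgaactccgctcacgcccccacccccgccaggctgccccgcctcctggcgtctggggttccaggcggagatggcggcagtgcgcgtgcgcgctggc
None of the 5 motifs was in the Gdpd3 window, which held 7 CpG, equal to the median of all 32851 RefSeq mouse windows. The Fam57b window shown held 1 TATAAA match, a motif found in 13.6% of all windows. The Cds1 window held 1 TGACGTCA, found in 1.79% of all windows, and 3 GGGCGG, found in 35.7%. Its 46 CpG exceeded the count in 98.35% of windows. The Cds2 window shown held 24 CpG, 2 CCAAT matches (found in 37.4% of windows) and 1 GGGCGG match. The other Cds2 window held 4 CpG, 3 CCAAT matches and no GGGCGG match. These matches are letters in a window and say nothing of binding.

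Gene counts per library ranged from 29244745 to 60751792, with a median of 32232112. Cerebellar markers matched the labels of the cerebellum libraries. The mean log2 CPM of 7 cerebellar markers was 6.68 to 9.48 in cerebellum libraries and at most 2.54 in all others. The 6.68 was that of D809 alone, with W813 next at 8.18. D809 cerebellum also had the highest oligodendrocyte marker mean of any library (9.71). Among cerebellum libraries it was the highest for Cers1 (112 CPM) and Cers2 (132 CPM) and the lowest for Cers6 (20.9 CPM). The mean of 7 cortical markers was 6.20 to 7.48 in deletion and 6.58 to 7.64 in wild-type cortex. Yet striatal exceeded cortical marker signal in 7 of 16 cortex libraries (D803, D804, D809, D811, W805, W815 and W816). The marker lists hold different genes, so which mean is higher does not give the share of each tissue. The striatum label was less clearly borne out: 0 of 9 striatal markers (among them Drd1 and Drd2, the dopamine receptors of striatal neurons) passed the edgeR test between striatum and cortex of wild-type mice, and none reached an unadjusted p under 0.05. Their mean log2 CPM was 4.16 to 8.43 in wild-type striatum and 3.71 to 7.64 in wild-type cortex. Among striatum libraries, D810 held more thalamic than striatal marker signal, W813 and W815 more cortical than striatal, and W813 and W816 were high in choroid plexus markers. Calls that rest on these libraries are given without them below. In deletion over wild-type mice, 9 of 9 striatal markers had a positive log2 fold change in cortex (median 0.53) and in striatum (median 0.50). In striatum 7 of 7 microglial markers (median 0.20), 6 of 6 endothelial markers (median 0.11) and 6 of 7 thalamic markers (median 0.46) were also positive. There 7 of 7 cortical markers were negative (median -1.11), and 0 of 7 tested choroid plexus markers were positive (median -1.69). In cortex 1 of 7 tested choroid plexus markers was positive (median -0.83). In cerebellum 7 of 7 cerebellar markers were negative (median -0.27), while 9 of 9 oligodendrocyte (median 0.10) and 7 of 7 microglial markers (median 0.09) were positive. None of these was called by edgeR, while DESeq2 called 2 of 8 choroid plexus markers lower in striatum. At an unadjusted edgeR p under 0.05, 3 microglial markers were higher and 3 choroid plexus markers lower in striatum. Of all genes tested there, 1.53% were higher and 1.79% lower at that p. In cerebellum 1 of 7 thalamic markers was lower at that p, beside 1.22% of all genes. The part of these markers in the genotype values below was not tested.

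Cdipt was lower in deletion mice in every region and in both sexes. In cortex it had 63.4, 94.7 and 107 CPM (counts scaled to library size with TMM factors; lowest, median and highest of 8) in deletion mice, against 142, 191 and 236 CPM in wild-type mice. In striatum the same 3 values were 53.2, 67.8 and 81.6 CPM in deletion mice and 99.2, 131 and 177 CPM in wild-type mice. In cerebellum they were 54.0, 79.6 and 89.4 CPM in deletion mice and 131, 167 and 196 CPM in wild-type mice. No deletion library reached the lowest wild-type library of its region. The mean in deletion mice was 47.2% of that in wild-type mice in cortex, 49.9% in striatum and 46.0% in cerebellum. On the log2 scale deletion over wild type was -1.08 ± 0.13 in cortex (SE; adjusted p = 9.50e-04, edgeR), -1.01 ± 0.12 (5.20e-04) in striatum and -1.13 ± 0.12 (1.84e-04) in cerebellum. In males alone, 4 against 4, it was -1.11 in cortex, -0.97 in striatum and -1.10 in cerebellum, and in females alone -1.05, -1.05 and -1.15 in the same regions. None of the single-sex fits passed the threshold (edgeR adjusted p from 0.136 to 0.776). Of all genes tested in those fits, 1, 3 and 0 were called lower in males (cortex, striatum and cerebellum) and 5, 0 and 0 in females. The antisense gene Cdiptos shares 169 bp of exon with Cdipt, and its level stayed at or below 1.21 CPM in every library.

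Fam57b, which encodes the TLC domain protein, differed by a like amount. In cortex it had 26.2, 38.0 and 47.0 CPM (lowest, median and highest) in deletion mice, against 64.5, 88.2 and 104 CPM in wild-type mice. In striatum it had 20.2, 30.3 and 34.5 CPM in deletion mice, against 49.6, 60.4 and 82.4 CPM in wild-type mice. In cerebellum, where it was highest, it had 59.3, 80.2 and 82.7 CPM in deletion mice, against 118, 155 and 170 CPM in wild-type mice. The genotypes did not overlap in any region. The mean in deletion mice was 44.7%, 48.6% and 49.6% of that in wild-type mice in cortex, striatum and cerebellum. The log2 fold change was -1.17 ± 0.13 (edgeR adjusted p = 2.17e-04) in cortex, -1.04 ± 0.13 (9.81e-04) in striatum and -1.02 ± 0.10 (6.09e-05) in cerebellum. In males alone it was -1.02, -1.03 and -0.98 in those regions, and in females alone -1.31, -1.06 and -1.05, with none past the threshold (edgeR adjusted p from 0.0996 to 0.756). It shares 25 of its 3935 bp of exon with Aldoa, the glycolytic aldolase gene on the opposite strand. Aldoa, also in the interval, had a total count of 2221689 against 114069 for Fam57b, and its log2 fold change was -1.05 ± 0.15 in cortex, -0.96 ± 0.16 in striatum and -0.93 ± 0.16 in cerebellum. Whether the counting used strand is not given in the sources used here, and the part of Aldoa reads in the Fam57b counts was not tested.

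Cdipt and Fam57b were thus 2 of 10 members called lower in each region. Among all genes tested, 0.119% were called lower in cortex, 0.116% in striatum and 0.126% in cerebellum. No member was called higher, against 0.0119%, 0.0116% and 0.012% of all genes in those regions. The shares of all genes that were lower in every deletion library than in any wild-type library were 0.107%, 0.105% and 0.096%, and Cdipt and Fam57b were such genes in each region. No member was higher in every deletion library than in any wild-type one, against 0.0119%, 0.00581% and 0.024% of all genes. Both calls held when any 1 library was left out (highest edgeR adjusted p = 0.00720). In striatum both also held without D810 (adjusted p = 0.00377 for Cdipt and 0.00720 for Fam57b) and without W813 and W816 (5.64e-04 and 0.00374). In fits added after the data had been seen, both held in striatum without W813 and W815 (-0.91 for Cdipt and -0.96 for Fam57b, edgeR adjusted p = 0.00236 and 0.00534). In cortex both held without the 7 libraries in which striatal exceeded cortical marker signal (-1.36 and -1.38, adjusted p = 0.0118 and 0.0124).

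**Figure D1:**
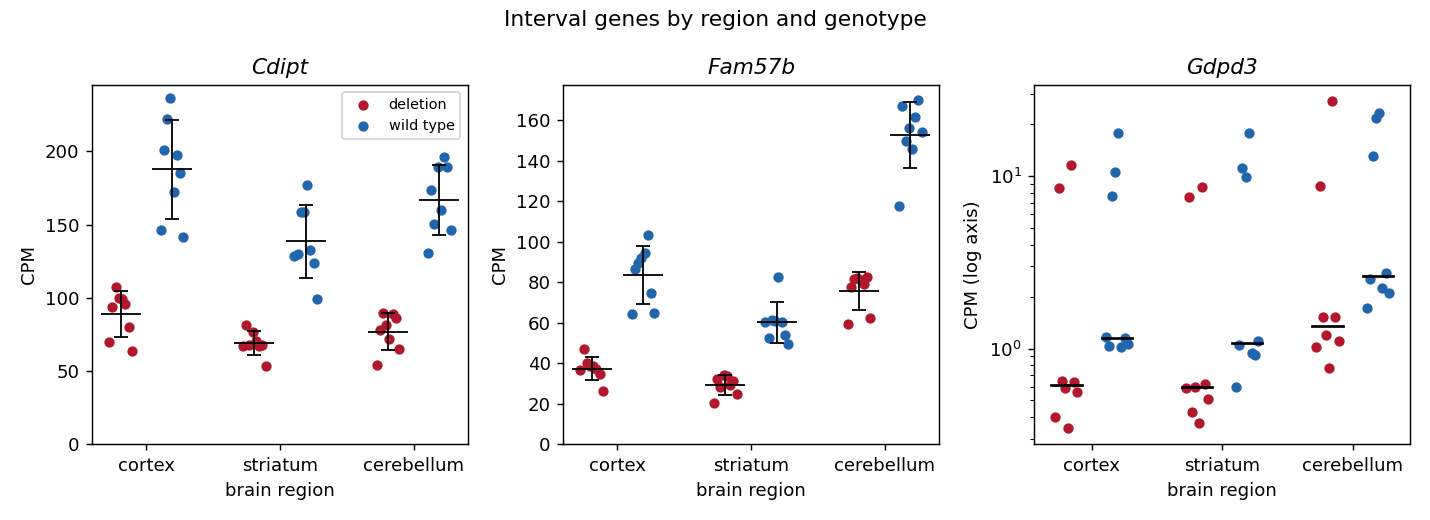
CPM of Cdipt, Fam57b and Gdpd3 in each library by region, deletion left of wild type; bars give the mean and SD for Cdipt and Fam57b and the median for Gdpd3, whose axis is logarithmic. The 2 genotypes are separate for Cdipt and Fam57b in every region, while Gdpd3 shows a high and a low set of animals in both genotypes.

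Gdpd3 was the lowest of the 10 genes per kilobase of exon in each group and spanned a wide range within both genotypes. In deletion cortex it had 0.346, 0.398, 0.558, 0.588, 0.636, 0.652, 8.54 and 11.6 CPM, against 1.03, 1.04, 1.06, 1.14, 1.16, 7.69, 10.6 and 17.9 CPM in wild-type cortex. In deletion striatum it had 0.370, 0.430, 0.507, 0.591, 0.602, 0.626, 7.55 and 8.61 CPM, against 0.596, 0.913, 0.940, 1.05, 1.11, 9.88, 11.2 and 17.7 CPM in wild-type striatum. In deletion cerebellum it had 0.773, 1.02, 1.10, 1.19, 1.52, 1.53, 8.82 and 27.3 CPM, against 1.72, 2.11, 2.25, 2.54, 2.74, 13.1, 21.8 and 23.4 CPM in wild-type cerebellum. The same 5 animals, D802, D810, W807, W808 and W813, were the highest in all 3 regions. No library lay between 1.16 and 7.69 CPM in cortex, between 1.11 and 7.55 CPM in striatum or between 2.74 and 8.82 CPM in cerebellum. High animals were of both genotypes and both sexes, and the labels name nothing else that they share.

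The group medians of Gdpd3 were 0.612 CPM in deletion and 1.15 CPM in wild-type cortex, 0.596 and 1.08 CPM in striatum, and 1.35 and 2.64 CPM in cerebellum. With the high animals in both groups, the log2 fold change was -0.87 ± 0.94 in cortex, -1.19 ± 0.94 in striatum and -0.85 ± 0.91 in cerebellum, and none was called (edgeR adjusted p = 0.965, 1.0 and 1.0). Its 95% interval in cortex ran from -2.86 to 1.124. An exact permutation test of the ranks of all 16 animals, 2-sided and chosen after the values had been seen, gave p = 0.0499 in cortex, 0.0379 in striatum and 0.0499 in cerebellum, each 0.0499 when adjusted over the 3 regions. That adjustment leaves out all other genes, and the test took no account of sex. The 3 regions come from the same 16 animals, so these are not separate results. Without W813 the log2 fold change in cortex was 0.10, without D810 it was -1.999 and without D802 -1.75. Gm9967, a transcript on the opposite strand that shares 298 bp of exon with Gdpd3, stayed between 0.199 and 2.90 CPM in all libraries and showed no such high set. Its log2 fold change was -0.99 ± 0.24 in cortex (edgeR adjusted p = 0.488), -1.59 ± 0.25 in striatum (0.0103) and -1.38 ± 0.25 in cerebellum (0.0319).

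**Figure D2:**
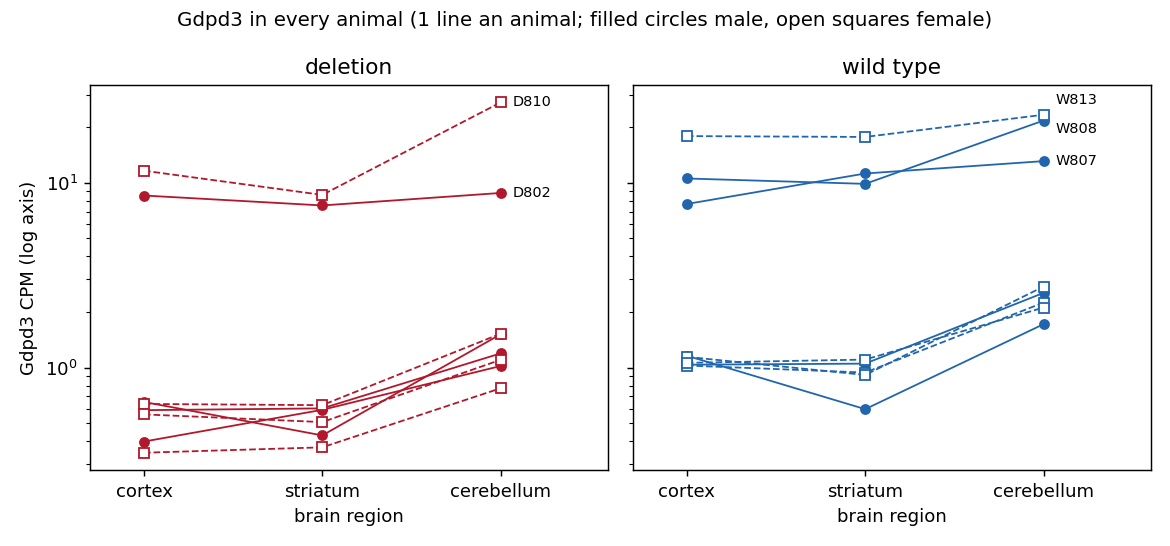
Gdpd3 CPM on a log axis in each of the 16 animals, with 1 line joining an animal's 3 regions, deletion left of wild type. The lines of D802, D810, W807, W808 and W813 stay at or above 7.55 CPM in every region, and all other lines stay at or below 2.74 CPM.

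The 7 partners outside the interval showed no called difference between genotypes in any region. Of these 7, 0 were called by edgeR, 0 had an unadjusted p under 0.05, and 0 were called by DESeq2, in cortex, in striatum and in cerebellum. Among all genes tested, the shares lower and higher at that unadjusted p were 1.26% and 0.776% in cortex, 1.79% and 1.53% in striatum, and 1.22% and 0.858% in cerebellum. Cds2, one of the enzymes directly upstream of CDIPT, had 415, 502 and 765 CPM (lowest, median and highest) in deletion cortex, against 426, 492 and 651 CPM in wild-type cortex. Its log2 fold change was 0.11 (95% interval -0.13 to 0.35) in cortex, -0.11 (-0.38 to 0.15) in striatum and -0.05 (-0.30 to 0.20) in cerebellum. Cds1, the other enzyme of that step, had 94.9, 122 and 166 CPM in deletion cortex, against 103, 146 and 206 CPM in wild-type cortex. Its log2 fold change was -0.21 (-0.53 to 0.10) in cortex, 0.09 (-0.22 to 0.40) in striatum and 0.12 (-0.03 to 0.26) in cerebellum. In cerebellum 7 of 8 deletion mice exceeded the mean Cds1 level of wild-type mice, with 164, 178 and 204 CPM in deletion mice and 147, 163 and 188 CPM in wild-type mice. The genotypes overlapped for both genes in every region.

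Among the ceramide synthases, Cers5, which makes C16 ceramide, had a log2 fold change of -0.07 (-0.24 to 0.10) in cortex, 0.02 (-0.13 to 0.16) in striatum and -0.03 (-0.21 to 0.14) in cerebellum. Cers2 had -0.05 (-0.32 to 0.21), -0.11 (-0.29 to 0.08) and -0.03 (-0.30 to 0.24) in the same order of regions. Cers4 had -0.09 (-0.28 to 0.10), -0.15 (-0.42 to 0.11) and -0.00 (-0.17 to 0.16). The intervals were widest for Cers1, with 0.17 (-0.31 to 0.65), 0.03 (-0.37 to 0.43) and 0.16 (-0.30 to 0.62), and for Cers6, with 0.14 (-0.18 to 0.46), -0.17 (-0.51 to 0.16) and -0.29 (-0.76 to 0.18). No interval of these 7 genes reached the log2 value of -1 in any region. The median log2 fold change of the 5 ceramide synthases was -0.05 in cortex, -0.11 in striatum and -0.03 in cerebellum, beside 0.00, -0.01 and -0.00 over all genes tested. Cers1 shares 68 bp of exon with Upf1 on the opposite strand. It also holds Gdf1 on its own strand (chr8:70329817-70331587), which had no row in the count table. Reads of these genes may be shared. Cers2 shares 75 bp with Setdb1 and 144 bp with 6330562C20Rik, both on the opposite strand. Upf1, Setdb1 and 6330562C20Rik were not called between genotypes in any region.

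**Figure D3:**
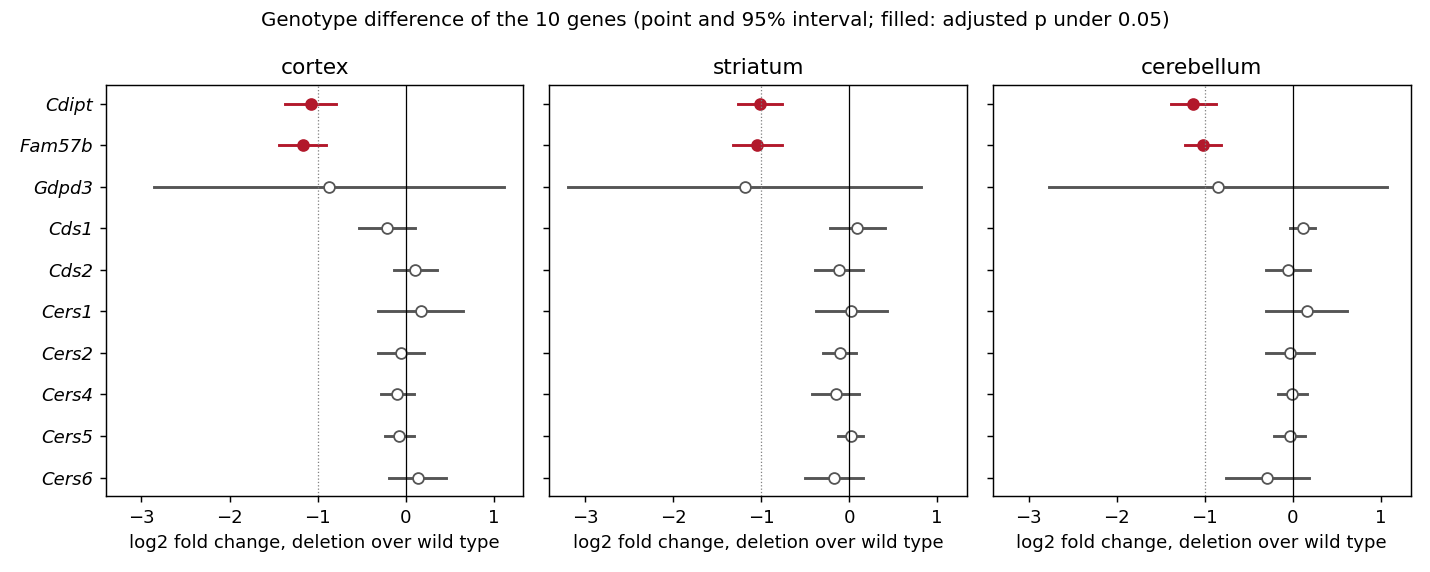
log2 fold change of deletion over wild type with its 95% interval for each of the 10 genes in each region; filled red points passed an adjusted p of 0.05. The points of Cdipt and Fam57b lie between -1.17 and -1.01, Gdpd3 has intervals that span 0, and the 7 partners lie between -0.29 and 0.17.

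The genotype difference was then compared between regions and between sexes. No member was called for a different genotype effect between any pair of regions, and no gene of all those tested was (0%). With the animal as a block no gene was called either. The smallest unadjusted p among members was for Cds1 between cerebellum and cortex, where the difference of the 2 log2 fold changes was 0.34 ± 0.18 (edgeR unadjusted p = 0.0701, adjusted p = 1.0). For Cdipt the difference was -0.04 ± 0.18 between cerebellum and cortex and 0.08 ± 0.18 between striatum and cortex, and for Fam57b 0.16 ± 0.17 and 0.14 ± 0.17. No member and no other gene was called for a different effect in males and females (0% in each region). The smallest p there was for Cers2 in cortex, with a male minus female difference of 0.47 ± 0.23 (edgeR unadjusted p = 0.0549, adjusted p = 1.0). With 4 animals of each sex and genotype, the 95% interval of that difference ran from -0.01 to 0.95.

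The regions were also compared within wild-type mice. Fam57b had the largest regional difference of the called members. It averaged 153 ± 16.4 CPM in cerebellum, against 83.8 ± 14.3 CPM in cortex (SD, n = 8 each), a log2 difference of 0.86 ± 0.12 (edgeR adjusted p = 1.56e-06). Its mean of 60.2 ± 10.1 CPM in striatum was lower than that in cortex, by a log2 difference of -0.48 ± 0.12 (0.00479), and than that in cerebellum, by -1.34 ± 0.12 (2.92e-09). So its order was cerebellum, cortex, striatum, with every step called. Cdipt averaged 138.5 ± 24.7 CPM in striatum, against 188 ± 33.7 CPM in cortex, a log2 difference of -0.44 ± 0.13 (edgeR adjusted p = 0.0190). That call was lost without W806, W814 or W815 (adjusted p from 0.0524 to 0.0752). Cerebellum, at 167 ± 23.8 CPM, was not called against cortex, and striatum was called lower than cerebellum only with the animal as a block (-0.27, adjusted p = 0.0152, against 0.0917 without the block), without W813 (adjusted p = 0.0465) or without the libraries named next. In a fit added after the data had been seen, the wild-type cortex libraries W805, W815 and W816 and striatum libraries W813 and W815, in which marker signal of the other region was the higher, were left out. Every regional call of a member held in it, Cdipt was lower in striatum than in cerebellum (-0.33, edgeR adjusted p = 0.0362), and Cers2 was higher in striatum than in cortex (0.53, adjusted p = 0.0330).

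The CDP-diacylglycerol synthases ran in opposite directions between striatum and the other regions. Cds1 averaged 86.4 ± 18.8 CPM in striatum, against 146 ± 33.5 CPM in cortex and 165 ± 13.5 CPM in cerebellum. The log2 difference was -0.77 ± 0.13 against cortex (edgeR adjusted p = 3.45e-04) and -0.93 ± 0.13 against cerebellum (4.11e-06). Cds2 averaged 678 ± 158 CPM in striatum, against 500.1 ± 73.5 CPM in cortex and 529 ± 107 CPM in cerebellum. The log2 difference was 0.43 ± 0.14 against cortex (0.0274) and 0.36 ± 0.14 against cerebellum (0.0324). The Cds2 call against cortex was lost without W807, W814, W815 or W816 (adjusted p from 0.0532 to 0.0830), and that against cerebellum without W814, W815 or W816 (0.0763 to 0.118). In deletion mice Cds1 was again lower in striatum than in cortex (log2 difference -0.47, edgeR adjusted p = 0.00961) and than in cerebellum (-0.98, 1.02e-06), and Cds2 was not called against cortex (0.20, 0.284) or against cerebellum (0.26, 0.0752).

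Among the ceramide synthases of wild-type mice, Cers1 averaged 58.8 ± 13.8 CPM in cerebellum, against 98.5 ± 29.6 CPM in cortex (log2 difference -0.74 ± 0.23, edgeR adjusted p = 0.00913). In striatum Cers1 averaged 96.5 ± 34.5 CPM, higher than in cerebellum by a log2 difference of 0.70 ± 0.23 (0.0131). Cers2 averaged 92.6 ± 17.7 CPM in cerebellum, against 68.6 ± 14.2 CPM in cortex (0.44 ± 0.14, 0.0114), and 89.5 ± 10.96 CPM in striatum, where the difference from cortex missed the threshold (0.39 ± 0.14, 0.0513). Cers4 averaged 61.8 ± 7.19 CPM in cerebellum, against 77.9 ± 8.03 CPM in cortex (-0.34 ± 0.11, 0.0117). In striatum Cers4 averaged 92.0 ± 17.3 CPM, higher than in cerebellum (0.58 ± 0.11, 1.11e-04). Cers5 was level, at 57.7 ± 3.74 CPM in striatum, 62.2 ± 5.36 CPM in cortex and 62.2 ± 6.02 CPM in cerebellum, with no comparison called. Cers6 averaged 71.0 ± 24.2 CPM in cerebellum, against 52.4 ± 8.92 CPM in cortex, and was called only with the animal as a block (0.39, 0.0444) or without W813 (0.51, 0.0325). In striatum it averaged 52.5 ± 16.7 CPM and was called lower than in cerebellum with the block (-0.42, 0.0311) and not without it (-0.45, 0.0762). The animal block also brought Gdpd3 past the threshold, at a log2 difference of 0.93 for cerebellum over cortex (6.00e-05) and -0.998 for striatum over cerebellum (2.95e-05).

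Between cerebellum and cortex, 2 members were called higher (Fam57b and Cers2) and 2 lower (Cers1 and Cers4), where 24.2% of all genes were called higher and 24.7% lower. With the animal as a block 4 were called higher, where 5114 of all 17633 genes tested were, against 4271 without the block. Between striatum and cortex, 1 member was called higher (Cds2) and 3 lower (Cdipt, Fam57b and Cds1), where the shares of all genes were 9.95% and 8.67%. Between striatum and cerebellum, 3 were called higher (Cds2, Cers1 and Cers4) and 2 lower (Fam57b and Cds1), where the shares were 25.5% and 22.4%. With the block 5 were called lower, where 4853 of all 17633 genes tested were, against 3955 without it. Beside these, 4 of 7 thalamic markers were called higher and 4 of 7 cortical markers lower in striatum than in cortex. In the same comparison 3 of 7 neuron, 2 of 7 microglial and 2 of 6 endothelial markers were lower. There 2 of 8 choroid plexus and 1 of 7 astrocyte markers were higher, and of 7 cerebellar markers 2 were higher and 1 lower. Neuron markers had 2 higher and 3 lower in cerebellum than in cortex, and 3 higher and 3 lower in striatum than in cerebellum. In cerebellum, 7 of 7 microglial markers were called lower and 5 of 7 astrocyte markers higher than in cortex (median log2 differences -1.64 and 1.197), and 7 of 7 microglial markers were higher and 5 of 7 astrocyte markers lower in striatum than in cerebellum (1.32 and -0.85). No oligodendrocyte marker of 9 was called. Their log2 differences were positive in 8 of 9 for cerebellum over cortex (median 0.50, with 2 at an unadjusted p under 0.05) and in 9 of 9 for striatum over cortex (median 0.39, with 0), beside 0.44 and 0.39 for Cers2. The part of cell makeup in the regional differences of the members was not tested.

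**Figure D4:**
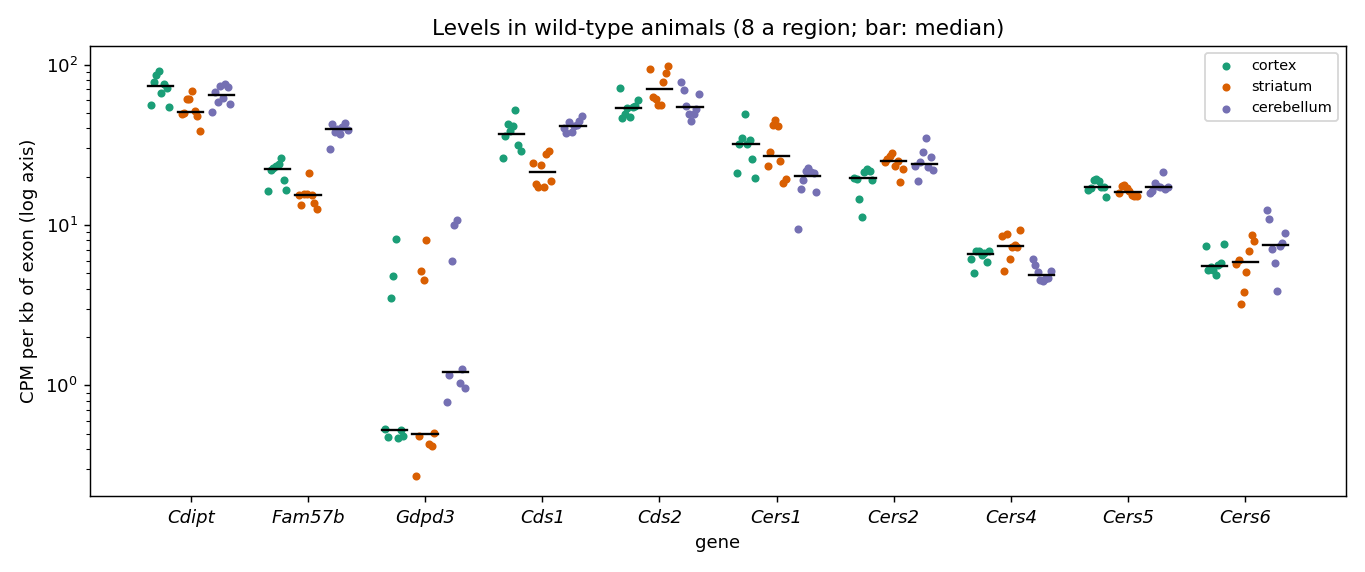
Levels of the 10 genes in wild-type mice as CPM per kilobase of merged exons on a log axis, with 8 animals a region and bars at the median. Cdipt and Cds2 lie highest, Gdpd3 lies lowest with 3 animals far above its median, and Fam57b is higher in cerebellum than in the other regions.

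Per kilobase of exon, levels can be set beside each other. In wild-type cortex Cdipt averaged 72.5 ± 13.0 CPM per kb, followed by Cds2 at 54.8 ± 8.06, Cds1 at 37.2 ± 8.50, Cers1 at 31.1 ± 9.33, Fam57b at 21.3 ± 3.63, Cers2 at 18.7 ± 3.87 and Cers5 at 17.6 ± 1.51 CPM per kb. Cds1 and Cers1, Fam57b and Cers2, and Cers2 and Cers5 were neighbours in this order that differed by less than the larger of their SDs. Cers4 at 6.35 ± 0.65, Cers6 at 5.90 ± 1.01 and Gdpd3 at 2.38 ± 2.90 CPM per kb came last. In wild-type striatum Cds2 was first at 74.3 ± 17.4 and Cdipt next at 53.4 ± 9.53 CPM per kb. In wild-type cerebellum Cdipt, at 64.4 ± 9.18, and Cds2, at 58.0 ± 11.7 CPM per kb, differed by less than their SDs. In deletion cortex Cdipt averaged 34.2 ± 6.06 CPM per kb, below Cds2 at 59.4 ± 12.1 and within the SD of Cers1 at 34.8 ± 12.1. Of the summed per kb level of the 5 ceramide synthases, Cers1 made up 41.4% ± 9.27 in deletion and 38.4% ± 7.96 in wild-type cortex, and 27.1% ± 6.32 in deletion and 24.7% ± 4.60 in wild-type cerebellum. Cers2 made up 22.1% ± 3.55 in deletion and 23.8% ± 5.76 in wild-type cortex, and 33.4% ± 4.24 in deletion and 33.7% ± 4.41 in wild-type cerebellum. By merged exon length, the share of Cers1 was the larger in cortex and that of Cers2 the larger in cerebellum in both genotypes. With the length of the longest protein-coding transcript in place of merged exons, Fam57b in wild-type cerebellum was 65.7 CPM per kb in place of 38.9. Cers1 and Cers2 in wild-type striatum were then 35.4 and 40.4 CPM per kb, in place of 30.4 and 24.4. In wild-type cortex they were 36.1 and 31.0 CPM per kb by that length. So the order of levels depends in part on the transcript assumed.

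Cers2 varied between animals together with the oligodendrocyte markers, a list of 9 myelin genes such as Mbp and Mog. As log2 deviations from the mean of the region, sex and genotype, Pearson's r was 0.925 over the 24 deletion libraries and 0.946 over the 24 wild-type libraries (Spearman's rho 0.957 and 0.935). Within single regions of 8 libraries, r was 0.909 to 0.974 in deletion mice and 0.851 to 0.977 in wild-type mice. The other 9 members had r between -0.52 and 0.61 with the same list. These are descriptions over libraries that share 8 animals a genotype. The marker list itself showed 0 of 9 genes called between genotypes by edgeR in each region, with 0 at an unadjusted p under 0.05.

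**Figure D5:**
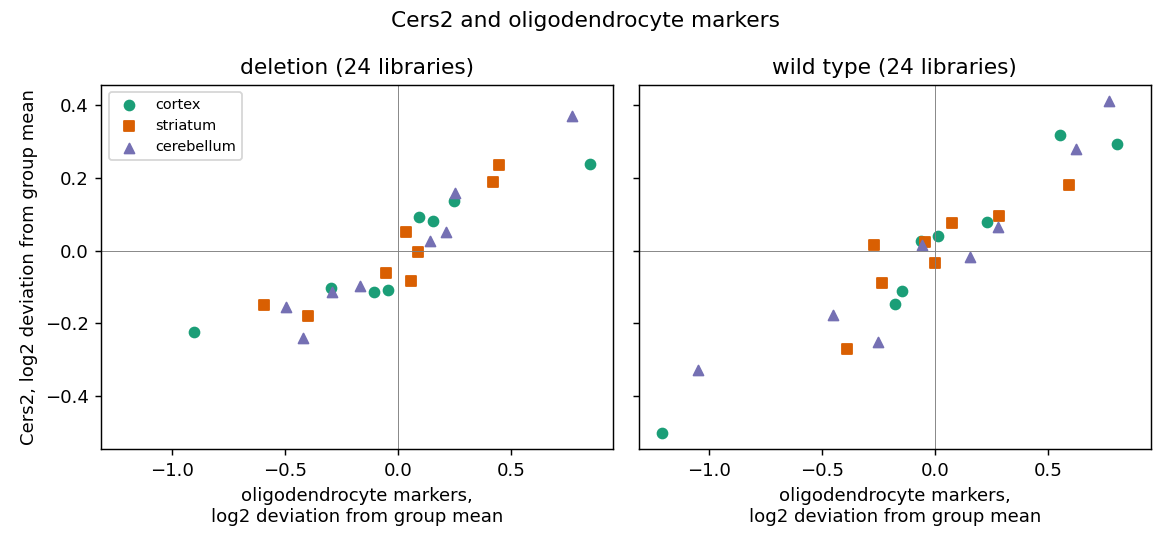
Cers2 against the mean of 9 oligodendrocyte markers, both as log2 deviations from the mean of the region, sex and genotype, with 1 point a library, deletion left of wild type. Points of all 3 regions lie along a rising line in both genotypes (r = 0.925 in deletion and 0.946 in wild-type libraries).

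Several other members moved with a library property that runs across all genes. In each library, the Spearman correlation over genes between a gene's deviation and its exon length was taken as a length trend, positive where long genes were high. The members' deviations correlated with it at r = -0.87 for Cers1, -0.84 for Cdipt, -0.68 for Fam57b, -0.69 for Cers5, 0.81 for Cds2 and 0.78 for Cers6 over the 24 deletion libraries. Over the 24 wild-type libraries the same r was -0.92, -0.77, -0.68, -0.68, 0.86 and 0.88. For Gdpd3 it was -0.14 over deletion and -0.83 over wild-type libraries, for Cers4 0.56 and 0.20, for Cds1 0.05 and -0.12, and for Cers2 -0.20 and -0.25. Taken from the mean of region and sex, the trend ranged from -0.53 to 0.58 in deletion and -0.49 to 0.51 in wild-type cortex, from -0.54 to 0.38 in deletion and -0.50 to 0.49 in wild-type striatum, and from -0.54 to 0.56 in deletion and -0.53 to 0.58 in wild-type cerebellum. The ranges of the genotypes overlapped in each region, while the medians were 0.00 in deletion and -0.30 in wild-type cortex, -0.11 and 0.31 in striatum, and -0.08 and -0.14 in cerebellum. The part of this property in the spread of the members and in their genotype differences was not tested.

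The genes most like Cdipt over the 24 wild-type libraries, by Pearson's r of deviations from the mean of region and sex among 15892 genes, were Napa, Reep2 and Kcnmb4 (r = 0.96 each), and Mblac1 and Znhit3 (0.95 each). Those most like Fam57b were Mfsd12, Bdh1 and Rab35 (0.93 each), Ggt7 (0.92) and Napa (0.92). These libraries come from 8 animals and share the length trend above.

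The wider lipid pathways were read from 5 lists. In the phosphatidylinositol synthesis and signalling list, 0 of 52 genes were called between genotypes in any region by edgeR or by DESeq2. At an unadjusted p under 0.05, 0 genes passed in cortex, 1 lower gene in striatum and 1 lower gene in cerebellum. The smallest p belonged to Pitpnm3, of a family of phosphatidylinositol transfer proteins, with 82.3 ± 21.7 CPM in deletion and 112 ± 34.8 CPM in wild-type cerebellum (log2 fold change -0.46 ± 0.18, edgeR adjusted p = 1.0). Next was Plcd1, a phospholipase C, with 11.5 ± 1.31 CPM in deletion and 13.7 ± 1.61 CPM in wild-type striatum (-0.25 ± 0.11, adjusted p = 1.0). The median log2 fold change of this list was 0.01 in cortex, -0.06 in striatum and -0.03 in cerebellum, beside 0.00, -0.01 and -0.00 over all genes.

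In the sphingolipid list, 0 of the 47, 49 and 47 genes tested in cortex, striatum and cerebellum were called by either tool. At an unadjusted p under 0.05, 5 of 49 genes in striatum were higher and 0 lower, with 0 in the other regions. Of all genes tested in striatum, 1.53% were higher and 1.79% lower at that p. Cers3, the ceramide synthase of skin and testis, had 0.389 ± 0.073 CPM in deletion and 0.252 ± 0.059 CPM in wild-type striatum (0.62 ± 0.20, edgeR adjusted p = 1.0), at a low level. Ormdl1, a regulator of serine palmitoyltransferase, had 8.32 ± 1.69 CPM in deletion and 6.66 ± 0.86 CPM in wild-type striatum (0.32 ± 0.13, adjusted p = 1.0). The list medians were 0.01, 0.04 and 0.01 in cortex, striatum and cerebellum.

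Of the 28 genes of other phospholipid synthesis, 0 were called in any region by either tool, with 1 unadjusted in striatum. The smallest p belonged to Cept1, a choline and ethanolamine phosphotransferase, with 45.7 ± 7.12 CPM in deletion and 38.3 ± 6.01 CPM in wild-type striatum (0.25 ± 0.11, edgeR adjusted p = 1.0). Its relative Chpt1 had 40.4 ± 10.3 CPM in deletion and 33.8 ± 5.39 CPM in wild-type striatum (0.25 ± 0.12, adjusted p = 1.0). The medians of this list were -0.00, 0.04 and -0.01.

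In the list of glycerophosphodiesterases and lysophospholipid enzymes, 0 of 12 genes tested were called in any region by either tool, with 1 unadjusted in striatum. That gene was Enpp2, which encodes the lysophospholipase D autotaxin, with 133 to 246 CPM in deletion and 167 to 2771 CPM in wild-type striatum (-1.22 ± 0.52, edgeR adjusted p = 1.0). Choroid plexus also expresses Enpp2. The mean log2 CPM of the choroid plexus markers was 0.85 to 2.30 in deletion and 1.85 to 6.56 in wild-type striatum, with 0 of 7 tested markers called by edgeR and 3 lower at an unadjusted p under 0.05. DESeq2 called 2 of 8 lower in deletion striatum. Their part in the Enpp2 value was not tested. Faah, which degrades anandamide, had 54.6 ± 11.5 CPM in deletion and 78.5 ± 48.7 CPM in wild-type striatum (-0.45 ± 0.24, adjusted p = 1.0). The list medians were -0.00, -0.01 and 0.02.

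Of 9 other genes of the TLC domain family, 0 were called in any region by either tool and 0 had an unadjusted p under 0.05. Tram1l1 had 45.1 ± 8.36 CPM in deletion and 40.6 ± 4.10 CPM in wild-type striatum (0.15 ± 0.11, edgeR adjusted p = 1.0). Tlcd2 had 0.387 ± 0.161 CPM in deletion and 0.521 ± 0.248 CPM in wild-type striatum (-0.44 ± 0.33, adjusted p = 1.0). The medians were 0.03, 0.02 and -0.00, so in none of the 5 lists did the median move by more than 0.06 on the log2 scale.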

How the data were processed

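A stranded mRNA kit was used, per the labels' protocols. STAR 2.4.2a, FastQC 0.10.1, Picard and SAMtools, and the builds GRCm38 and mm8 without roles, are named in the submitters' processing notes. No counting tool, annotation or strand setting is named there. The authors deposited whole-number read counts, not normalized, for 47161 features. The 92 ERCC spike-ins (0.0614% to 1.09% of counts) were left out, and 46574 of 47069 gene IDs matched GENCODE vM21.

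From these counts, edgeR 4.0.16 in R 4.3.3 (TMM, filterByExpr, robust quasi-likelihood test, sex as covariate) was fitted per region, with Benjamini-Hochberg adjustment over all genes tested and calls at 0.05. Differences between regions or sexes were tested as interactions, and regional levels in 1 fit of the 24 wild-type libraries. The main fits between regions held no term for the animal, although the regions came from the same mice. DESeq2 1.42.0, RLE factors, no filter, an animal block and left-out libraries were alternatives. CPM used TMM over all 48 libraries; the fit was tested on simulated data. Replicates are separate animals, per the labels. Same-numbered libraries come from 1 animal, and their deviations correlated at a median of 0.53 (cerebellum and cortex), 0.42 (striatum and cortex) and 0.39 (striatum and cerebellum). The lowest of the 16 pairs had 0.012, -0.43 and -0.33 in the same order.

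All members were named; from each pathway list, genes called outside the interval or else the 2 of smallest p; overlapping genes; and the 5 genes most like Cdipt and Fam57b. Members, lists and tests were chosen with earlier results of these data known.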

Additional observations from a re-analysis of the deposited data

Results flagged for a closer look

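In groups of 8 libraries, 5 group extremes stood apart by Dixon's test at 95%, among 60 groups of a gene in a region and genotype, where chance flags about 1 in 20. In deletion striatum D812, also the deepest library at 60751792 counts, was the highest for Cds2 at 858 CPM and for Cers4 at 112 CPM. In wild-type cerebellum W805 was the lowest for Fam57b at 118 CPM. In wild-type striatum W813 was the highest for Fam57b at 82.4 CPM, in a library with more cortical than striatal marker signal (mean log2 CPM of 6.14 and 4.16). In deletion cerebellum D810 was the highest for Gdpd3 at 27.3 CPM, and it was high in its cortex and striatum too. The calls of Fam57b held without each of these libraries.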

How the results depend on the processing

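The count of 2 members called lower in deletion mice was the same in each region with RLE factors, no filter, DESeq2, marker covariates, 1 fit of all groups and each left-out library. With males only or females only it was 0 in cortex, striatum and cerebellum, where the log2 fold changes of Cdipt and Fam57b stayed between -1.31 and -0.97 at 4 animals a group. Of all genes tested, at most 5 were called lower in any of these single-sex fits. Between regions, the deletion libraries gave 1 member lower in cerebellum than cortex and 1 higher in striatum than cerebellum. The animal block gave 4 higher in cerebellum than cortex and 5 lower in striatum than cerebellum, and it changed no other count by over 1.5 times. Among all 17633 genes tested, those counts rose from 4271 to 5114 and from 3955 to 4853 with the block. RLE factors gave 2 higher in striatum than cortex, as did leaving out the wild-type libraries with more marker signal of the other region. Leaving out 1 wild-type animal gave 0 to 2 members higher in striatum than cortex and 2 to 4 lower in striatum than cerebellum. The cause was not tested in any of these.

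Sign changes were all of differences that had not been called. For deletion over wild type, Gdpd3 in cortex was 0.46 with marker covariates. Males only gave 0.18 for Cers2 in cortex, -0.00027 for Cers1 and 0.038 for Cers6 in striatum, and 0.040 for Cers5 in cerebellum. Females only gave -0.0062 for Cers5 in striatum, and 0.035 for Cds2, 0.076 for Cers2 and 0.017 for Cers4 in cerebellum. Cds1 in striatum was -0.00031 without D810 and -0.014 without W813 and W816. Cers1 in cortex was -0.44 without the 7 cortex libraries with more striatal than cortical marker signal. Cers4 in cerebellum was 0.0089 with covariates and 0.0075 in 1 fit of all groups. Over left-out libraries, Gdpd3 in cortex ran from -1.999 to 0.10; in striatum Cds1 from -0.00031 to 0.16, Cers1 from -0.053 to 0.19 and Cers5 from -0.012 to 0.051; and in cerebellum Cds2 from -0.11 to 0.011, Cers2 from -0.10 to 0.047, Cers4 from -0.045 to 0.032 and Cers5 from -0.064 to 0.012. Between cerebellum and cortex, the deletion libraries gave -0.061 for Cds2 and 0.053 for Cers5, and left-out animals -0.054 to 0.013 for Cers5. Between striatum and cortex, Gdpd3 was -0.072 with the animal block, -0.25 in deletion libraries and -0.084 to 0.14 over left-out animals, where Cers1 ran from -0.12 to 0.024 and Cers6 from -0.10 to 0.075. Cers2 between striatum and cerebellum ran from -0.11 to 0.045. Without the libraries with more marker signal of the other region, Cds1 between cerebellum and cortex was -0.045, Gdpd3 and Cers6 between striatum and cortex were -1.13 and 0.060, and Cers2 between striatum and cerebellum was 0.053.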

Other observations

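The regional differences of the wider lipid lists in wild-type mice are given here for genes chosen after their values were seen. Between cerebellum and cortex, 16 of 52 genes of phosphatidylinositol synthesis and signalling were called higher and 17 lower, where 24.2% of all genes tested were called higher and 24.7% lower. Itpr1, the inositol trisphosphate receptor abundant in Purkinje cells, averaged 2240 ± 1079 CPM in cerebellum and 442 ± 187 CPM in cortex (SD, n = 8 each; log2 difference 2.35 ± 0.43, edgeR adjusted p = 7.37e-05). Plcb4, a phospholipase C, averaged 259 ± 101 CPM in cerebellum and 52.7 ± 17.8 CPM in cortex (2.29 ± 0.31, 1.34e-06). The related Plcb1 averaged 55.3 ± 17.6 CPM in cerebellum and 196 ± 55.5 CPM in cortex (-1.84 ± 0.29, 1.23e-05).

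Of 48 sphingolipid genes tested, 15 were called higher and 6 lower in cerebellum than in cortex, beside 24.2% and 24.7% of all genes. Cerk, which phosphorylates ceramide, averaged 311 ± 38.8 CPM in cerebellum and 82.9 ± 6.14 CPM in cortex (log2 difference 1.90 ± 0.09, edgeR adjusted p = 2.32e-13). Smpd3, a neutral sphingomyelinase, averaged 19.1 ± 3.89 CPM in cerebellum and 95.5 ± 34.7 CPM in cortex (-2.33 ± 0.24, 3.90e-08). The myelin galactolipid enzymes Fa2h and Ugt8a were higher in cerebellum by 0.69 ± 0.27 and 0.78 ± 0.29 (0.0390 and 0.0282).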
